A study of Mus musculus with 2 samples.

Results

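Transcripts of the GENCODE type nonsense-mediated decay (NMD) were described in kidneys of the inbred laboratory mouse strain C57BL/6J at 8 weeks of age. A transcript was taken when GENCODE release M21 gives it that type and when it reached 1 TPM or more in both libraries. TPM is a level scaled to the same total in each library, after each count of fragments is divided by the effective length of the transcript. The rule gave 896 transcripts of 785 genes, out of 103639 mouse transcripts in the deposited tables and out of 4687 of the NMD type (19.1%). The series holds 1 group, adult kidney, with 2 libraries named replicate 1 and replicate 2, made from polyadenylated RNA of pooled male and female littermates. The labels name no treatment and no allele and give the health state as unknown. They number the libraries as biological replicates but carry 1 donor label for both, and do not say whether the animals differed. The tables hold 67252609 expected counts of mouse transcripts in replicate 1 and 87330096 in replicate 2, an expected count being the estimated number of fragments of a transcript. The transcripts were chosen by their TPM in both libraries, so levels are given as a description and no test is made of them.

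NMD is a quality control of translation that removes messenger RNAs whose stop codon comes too early. In mammals a stop codon is usually read as early when an exon junction lies more than about 50 bases downstream, because the protein complex left at that junction by splicing is still bound after the ribosome stops. The factor UPF1, its partners UPF2 and UPF3 and the SMG proteins then lead to decay of the RNA. Many splicing factors keep their own amount constant through this route, by splicing a so-called poison exon with a stop codon into their RNA. The GENCODE type is a label given from the position of the stop codon, and it does not measure decay. Transcripts seen here are those present in steady-state RNA.

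Sequences at the stop codons of these transcripts are shown first. The sequences are those of the GENCODE M21 transcripts on GRCm38, written 5′ to 3′ in the sense of the RNA. Each of the first set is the last 30 bases of an open reading frame and ends in its stop codon, in capitals. They belong to 6 genes whose NMD transcripts are among the highest or hold most of the gene, to the decay factor gene Smg6, to the splicing regulator genes Tardbp and Clk1, and to the glucose transporter gene Slc2a2.
Ppia-201: caaagacagcagaaaactttcgagctcTGA
Hspa5-204: atcgacttggggaccacctattcctggTAA
Adhfe1-201: tactcccaagatggctgtctcaaatatTAG
Rpl12-201: gggtctgtctccgaagaaagttggcgaTGA
Lpl-203: catgacaagtctctgaagaagtctggcTGA
Snrpa1-201: gactttcagaaagtgaaactcaaatttTAA
Smg6-202: gatgatggagacattccctgcagtggcTGA
Tardbp-228: aactatcccaaaggtcaagaaagatctTAA
Clk1-211: tcacacgggatgaaattgttgatacttTAG
Slc2a2-202: actggcccttgtcacaggcattcttatTAG
The windows lie at chr11:6418120-6418243 for Ppia-201, chr2:34772421-34772450 for Hspa5-204, chr1:9549935-9552942 for Adhfe1-201, chr2:32962116-32962596 for Rpl12-201 and chr8:68902357-68904506 for Lpl-203, all on the plus strand. Those of Snrpa1-201 (chr7:66069503-66070595), Smg6-202 (chr11:74946217-74990096) and Slc2a2-202 (chr3:28717498-28717527) are also on the plus strand. Those of Tardbp-228 (chr4:148620716-148625137) and Clk1-211 (chr1:58419713-58421091) are on the minus strand. Hspa5-204 and Slc2a2-202 have the window inside 1 exon, and in the other 8 it crosses an exon junction. In Lpl-203 the stop codon itself is split by that junction, with 1 of its bases in the next exon. This stop codon is also that of the coding Lpl-201, as described below.

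The second set shows poison exons from their first base to the stop codon, in capitals, for 3 splicing regulators, an RNA-binding protein of the cold response and a ribosomal protein. Each exon is absent from the coding transcript used for comparison.
Srsf6-201: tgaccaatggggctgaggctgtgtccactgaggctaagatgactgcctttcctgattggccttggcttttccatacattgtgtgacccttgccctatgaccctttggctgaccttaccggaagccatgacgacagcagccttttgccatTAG
Srsf11-212: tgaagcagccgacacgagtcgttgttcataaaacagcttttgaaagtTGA
Hnrnpl-213: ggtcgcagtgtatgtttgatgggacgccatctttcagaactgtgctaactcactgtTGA
Rbm3-208: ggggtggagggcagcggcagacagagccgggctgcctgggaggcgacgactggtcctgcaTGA
Rps19-205: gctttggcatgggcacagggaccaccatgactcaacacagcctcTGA
They lie at chr2:162932815-162932966 (Srsf6-201, plus strand), chr3:158023310-158023359 (Srsf11-212, minus strand), chr7:28817335-28817393 (Hnrnpl-213, plus strand), chrX:8144383-8144445 (Rbm3-208, minus strand) and chr7:24886107-24886153 (Rps19-205, plus strand). The stop comes after 152 bases of the 268-base exon of Srsf6, after 50 of 117 bases in Srsf11 and after 63 of 271 bases in Rbm3. It comes after 59 of 70 bases in Hnrnpl and after 47 of 81 bases in Rps19.

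The third set shows the smallest differences, a few bases at a splice site, in capitals, with 12 bases on either side in lower case. Ppia-201 holds 5 bases that the coding Ppia-202 lacks, Tesc-202 holds 5 that the coding Tesc-201 lacks, and Mrpl3-206 lacks 4 bases that the coding Mrpl3-201 holds.
Ppia-201: gtctccttcgagGTCGGctgtttgcagac
Ppia-202: gtctccttcgagctgtttgcagac
Tesc-202: gagtatagaaatGTAAAgtggtggaggag
Tesc-201: gagtatagaaatgtggtggaggag
Mrpl3-206: cttagagagaagaatatcttgttc
Mrpl3-201: cttagagagaagAAAGaatatcttgttc
These sequences lie at chr11:6415968-6418112 for Ppia, chr5:118056427-118056548 for Tesc and chr9:105053501-105054436 for Mrpl3, all on the plus strand and each across an intron. None of the 3 differences is a multiple of 3 bases, so the reading frame after it is shifted.

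Most NMD transcripts were of low level. Their mean TPM had a median of 3.99 (quartiles 2.09 and 8.94), and in the single libraries the median was 4.41 TPM in replicate 1 and 3.57 TPM in replicate 2. Of the 896, 170 reached 10 TPM in both libraries, 21 reached 50 TPM and 5 reached 100 TPM. Together they held 0.991% of all TPM in replicate 1 and 0.856% in replicate 2, or 1.02% and 0.899% of the expected counts of mouse transcripts. The 10 highest held 21.6% of that TPM in replicate 1 and 23.9% in replicate 2. Most genes (696) had 1 NMD transcript past the minimum, and Tmem234, which encodes a membrane protein, had the most, 7.

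Outside the chosen set, 315 further NMD transcripts reached 1 TPM in 1 library only, 215 of them in replicate 1 and 100 in replicate 2. The other 3476 were below 1 TPM in each library, with 1482 at 0 in both. Just inside the minimum were Akr1b10-203 (2.40 TPM in replicate 1 and 1.00 in replicate 2), Jmjd6-205 (1.26 and 1.00) and Ubl4a-201 (1.00 and 1.70). Just outside were Casp4-203 (1.20 and 0.99 TPM), Phyhd1-208 (2.58 and 0.99) and Trp53bp1-216 (0.99 and 1.08).

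Beside other transcript types past the same minimum, NMD transcripts were intermediate in length and low in their share of the gene. The median length was 1447 bases for the 896 NMD transcripts, against 2425 bases for 16951 protein-coding transcripts, 803 for 2996 retained-intron transcripts and 692 for 1698 processed transcripts. Median mean TPM was 3.99 for NMD transcripts, against 7.17, 3.52 and 4.11 for protein-coding, retained-intron and processed transcripts in that order. IsoPct, the share of a gene's TPM that 1 transcript holds, had a median of 17.3% for NMD transcripts, against 60.3% for protein-coding, 9.53% for retained-intron and 18.5% for processed transcripts. It exceeded 50% for 137 NMD transcripts (15.3%), against 9535 protein-coding transcripts (56.3%). These differences between types were not tested, since transcripts of 1 gene share its fragments and are not replicates.

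**Figure D1:**
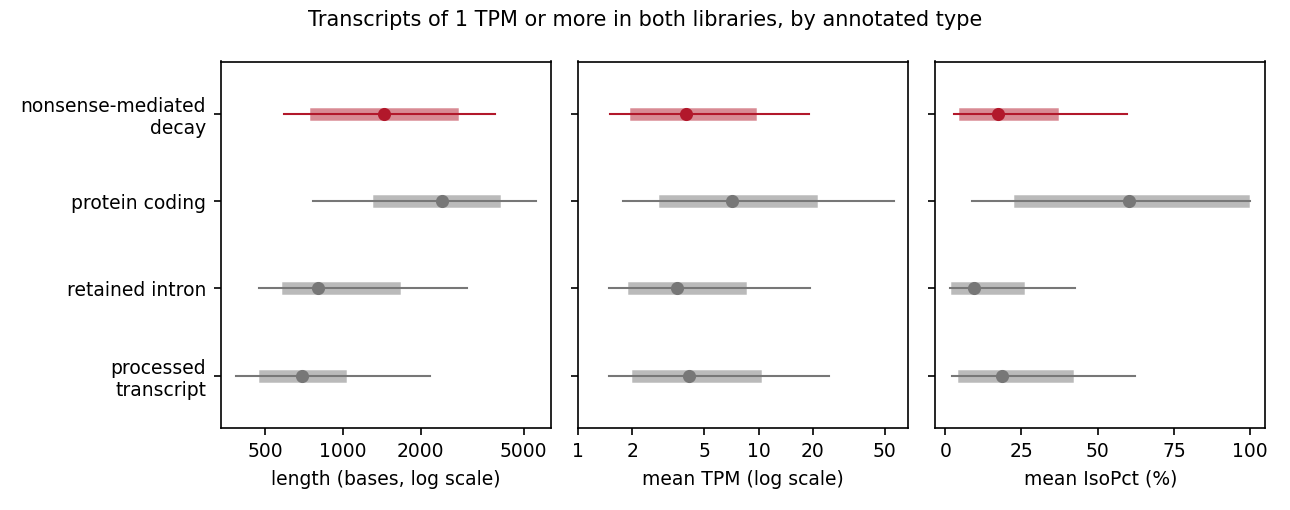
Length (bases, log axis), mean TPM of both libraries (log axis) and mean IsoPct (%) of transcripts of 1 TPM or more in both libraries, by GENCODE type. Points are medians, thick bars run from the 25th to the 75th percentile and thin lines from the 10th to the 90th; the median IsoPct is 17.3% for NMD transcripts and 60.3% for protein-coding ones.

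An NMD transcript mostly shares its sequence with the coding transcripts of its gene, and its level is then an estimate with its own error. The deposited standard deviation of the estimate exceeded 10% of the estimated count in a library for 450 of the 896 (50.2%), against 21.6% of protein-coding, 36.9% of retained-intron and 40.1% of processed transcripts. The types were not matched for count or length here, and the part of shared sequence in this difference was not tested. The lower bound of the deposited TPM interval, whose level is not given in the sources used here, was 1 or more in both libraries for 676 of the 896. Exon structures from M21 were used for the 821 transcripts whose length in the tables equals the M21 length. Of these, 119 had neither an exon junction nor an exon base that is absent from all other listed transcripts of the gene with an M21 match. No single junction or base thus sets them apart. Whether a fragment across several features belongs to them alone was not examined. The estimate was uncertain by the same measure for 62.2% of those 119, against 49.9% of the other 702.

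The highest NMD transcript was Ppia-201, from the gene of cyclophilin A, an abundant protein-folding enzyme. It had 709.7 TPM in replicate 1 and 701 TPM in replicate 2, with IsoPct values of 88.1% and 85.6%. Its deposited TPM intervals, 694 to 715 and 688 to 707, overlapped. Those of 329 of the 896 NMD transcripts did not. No such share was computed over all transcripts, so this count is not read as a trait of the type. The coding Ppia-202 had 61.2 and 94.5 TPM. Of the 1170 bases of Ppia-202, 429 lie outside the span of Ppia-201, and inside that span the pair differ only by the 5 bases shown above.

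Cyb5a-201, from the gene of cytochrome b5, an electron carrier of fatty acid desaturation, had 290.2 TPM in replicate 1 and 283 TPM in replicate 2, with IsoPct values of 44.1% and 40.9%. It holds a 19-base exon that the coding Cyb5a-204 lacks, and the stop codon lies in it. Cyb5a-204 had 17.5 and 20.6 TPM, and another coding transcript, Cyb5a-205, was above Cyb5a-201 in both libraries, at 343 and 381 TPM. Hspa5-204, from the gene of BiP, the main chaperone of the endoplasmic reticulum, had 277 and 267 TPM and is 477 bases long, against 2613 bases for the coding Hspa5-202. Dnase1-211, from the gene of a secreted DNA-cutting enzyme, had 182 and 188 TPM, but the coding Dnase1-202 had 1102 and 1022 TPM. Adhfe1-201, from the gene of a mitochondrial transhydrogenase of hydroxy acids, had 176 and 148 TPM. These 5 were the ones above 100 TPM in both libraries.

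The other 10 of the 15 highest lay between 30 TPM (Pebp1-204 in replicate 1) and 147 TPM (Pgk1-203 in replicate 1). Prodh-207 (87.7 TPM in replicate 1 and 109.9 in replicate 2) is from the gene of proline dehydrogenase, and Chpt1-207 (80.5 and 115 TPM) from that of an enzyme of phosphatidylcholine synthesis. Lpl-203 (113 and 63.6 TPM) is from the lipoprotein lipase gene and Pnpla2-201 (77.2 and 80 TPM) from that of adipose triglyceride lipase. Adh1-202 (87.4 and 67.1 TPM) is from an alcohol dehydrogenase gene. Rpl12-201 (75 and 124 TPM), Eif4a1-201 (86.7 and 76.7 TPM) and Ddx5-205 (85.5 and 61 TPM) are from genes of a ribosomal protein, a helicase of translation initiation and an RNA helicase.

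Pgk1-203, from the gene of the glycolytic enzyme phosphoglycerate kinase, and Pebp1-204, from that of a phospholipid-binding protein, completed the 15 and were far apart between the libraries. Pgk1-203 had 147 TPM in replicate 1 and 44.9 TPM in replicate 2, while the coding Pgk1-201 had 68.1 and 181 TPM. Pebp1-204 had 30 and 145 TPM, while the coding Pebp1-201 had 469 and 442 TPM. Another coding transcript of the gene, Pebp1-202, was also uneven, at 383 and 11 TPM. For Pgk1 the order of the NMD and the coding transcript was thus opposite in the libraries. For Pebp1, Pebp1-201 was above the NMD transcript in both, and Pebp1-202 was above it in replicate 1 and below it in replicate 2.

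**Figure D2:**
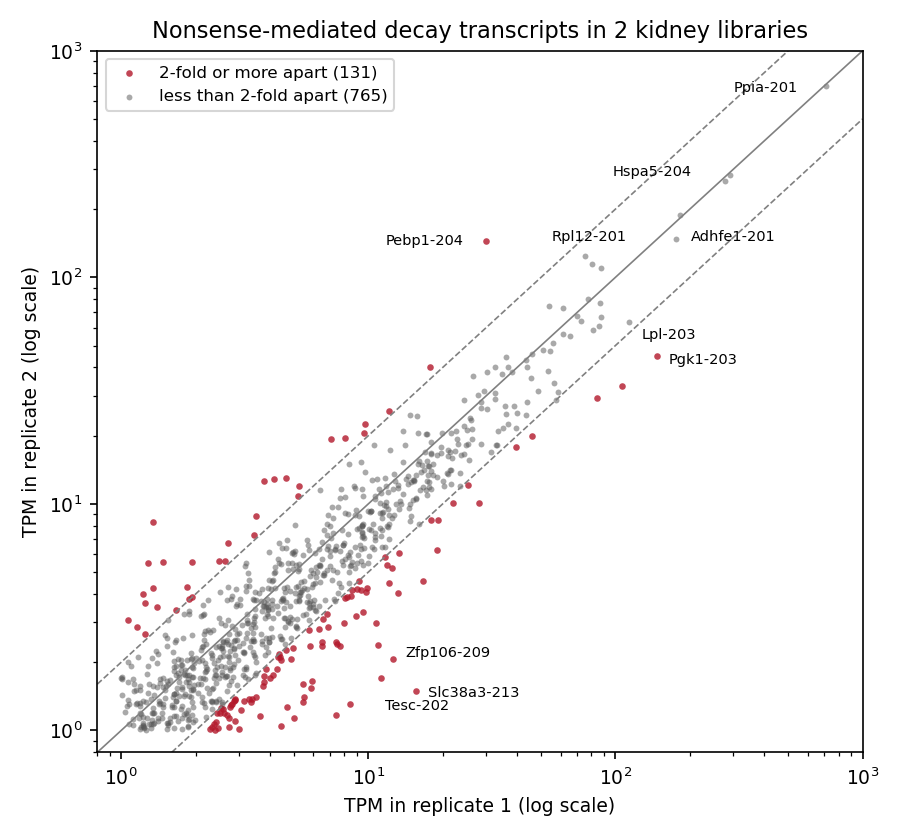
TPM of the 896 NMD transcripts in replicate 1 (x axis) and replicate 2 (y axis), both on log axes, 1 point per transcript, with the line of equal TPM and dashed lines at 2-fold. Red points, 131, are 2-fold or more apart (14.6%, against 8.2% of all transcripts at 1 TPM or more in both libraries), and Ppia-201 stands alone at the top right.

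In 147 of the 785 genes (18.7%), NMD transcripts held more than 50% of the gene's TPM, as the mean of both libraries. The share exceeded 50% in each library for 129 of the 147 and in 1 library for 18. Over all 785 genes the median share was 21.6% of TPM and 15.9% of expected counts. The share was 10% or less for 229 genes and above 75% for 45.

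The genes at 100% were mostly genes for which the tables list no coding transcript. In 20 genes the share was 100% in both libraries, 18 of them had 1 row in the tables, and 19 had no protein-coding row. Of the 20 genes with a share over 50% and no protein-coding row, 10 have a protein-coding transcript in M21 that the tables do not list, and 10 are readthrough genes, whose transcripts join exons of neighbouring genes. Dnajc15, which encodes a mitochondrial co-chaperone, is of the first kind, and the row of Dnajc15-201 held 100% of 70 TPM in replicate 1 and of 67.2 TPM in replicate 2. That row has 648 bases in the tables and 674 in M21. All 10 genes of the first kind have a length in the tables that differs from M21, so the quantified transcript is not the structure to which M21 gives the NMD type, and their 100% is not a share of a transcript known to carry that stop codon. Hnrnpu-206 and Hnrnpu-208 are of the second kind. The tables list them under a gene identifier of their own, in which they held 99.3% and 100% of TPM, apart from the gene of the nuclear protein hnRNP U.

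The remaining 127 genes had a coding transcript to compete for fragments, and there the share depended on the unit. TPM divides counts by effective length, so a short transcript has more TPM for the same number of fragments. Of the 127 genes, 64 also had more than 50% of their expected counts in NMD transcripts and 63 did not. For the 127 the median share was 61.8% of TPM and 50.4% of expected counts. In 97 of them the structures of both transcripts could be compared, and there the highest NMD transcript had a median length of 1386 bases, against 3559 bases for the coding transcript. Its span held a median of 48.4% of the coding transcript, against 66.5% in the genes below 50%.

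Adhfe1, Ppia, Mrpl3 and Tesk1 stayed above 50% in either unit and in either library. The NMD transcripts of Adhfe1, Adhfe1-201 and Adhfe1-205, held 93.4% of its TPM in replicate 1 and 93.5% in replicate 2, with 89.8% and 90.1% of its counts. Ppia-201 held 83.5% and 78.9% of the counts of Ppia. Mrpl3-206 and Mrpl3-204, from the gene of a mitochondrial ribosomal protein, held 96% and 94.1% of its TPM and 79.8% and 75.9% of its counts. Tesk1-204, from a protein kinase gene of actin dynamics, held 86.9% and 80.8% of TPM and 78.7% and 71.3% of counts.

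Zdhhc3 and Mia2, which encode a protein palmitoyltransferase and a factor of protein export from the endoplasmic reticulum, also stayed above 50% in either unit. The 4 NMD transcripts of Zdhhc3 held 88.3% and 91.6% of its TPM and 76.6% and 80.2% of its counts. Mia2-213 held 75.1% and 72.3% of TPM and 81.1% and 74.5% of counts. For Ddx5 the TPM shares were 61% and 60.7% and the count shares 58.5% and 52.7%.

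In other genes the NMD transcripts held most of the TPM and a minority of the counts. Hspa5-204 held 81.3% of the TPM of Hspa5 in replicate 1 and 82.5% in replicate 2, but 33.7% and 36.1% of its counts. Mpp1-204, 368 bases long and from the gene of a membrane scaffold protein, held 59.1% and 57.8% of TPM and 9.67% and 10.1% of counts. Rrp7a, a ribosome assembly gene, had 82.1% and 82.5% of TPM and 34.4% and 32.7% of counts in Rrp7a-203 and Rrp7a-204. Cct4, which encodes a subunit of the cytosolic chaperonin, had 73.3% and 74.6% of TPM and 28.2% and 27.9% of counts in Cct4-203.

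Sppl3, an intramembrane protease gene (65.5% and 65.2% of TPM), Xpo6, a nuclear export receptor gene (57.9% and 56.5%), Tmem234 (55.3% and 56.2%) and Smim14 (46.7% and 53.5%) also had count shares below 50% in both libraries. Eif4a1 was at 56.5% of TPM in replicate 1 and 47.6% in replicate 2. Rpl12 (46.8% and 57.7% of counts), Lpl (59.8% and 35.1%) and the ubiquitin ligase gene Rnf114 (53.7% and 49.1%) lay on different sides of 50% by counts in the libraries. The lengths of Sppl3-202 and Smim14-201 differ from M21, as do those of the highest NMD transcripts of 30 of the 147 genes in all.

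**Figure D3:**
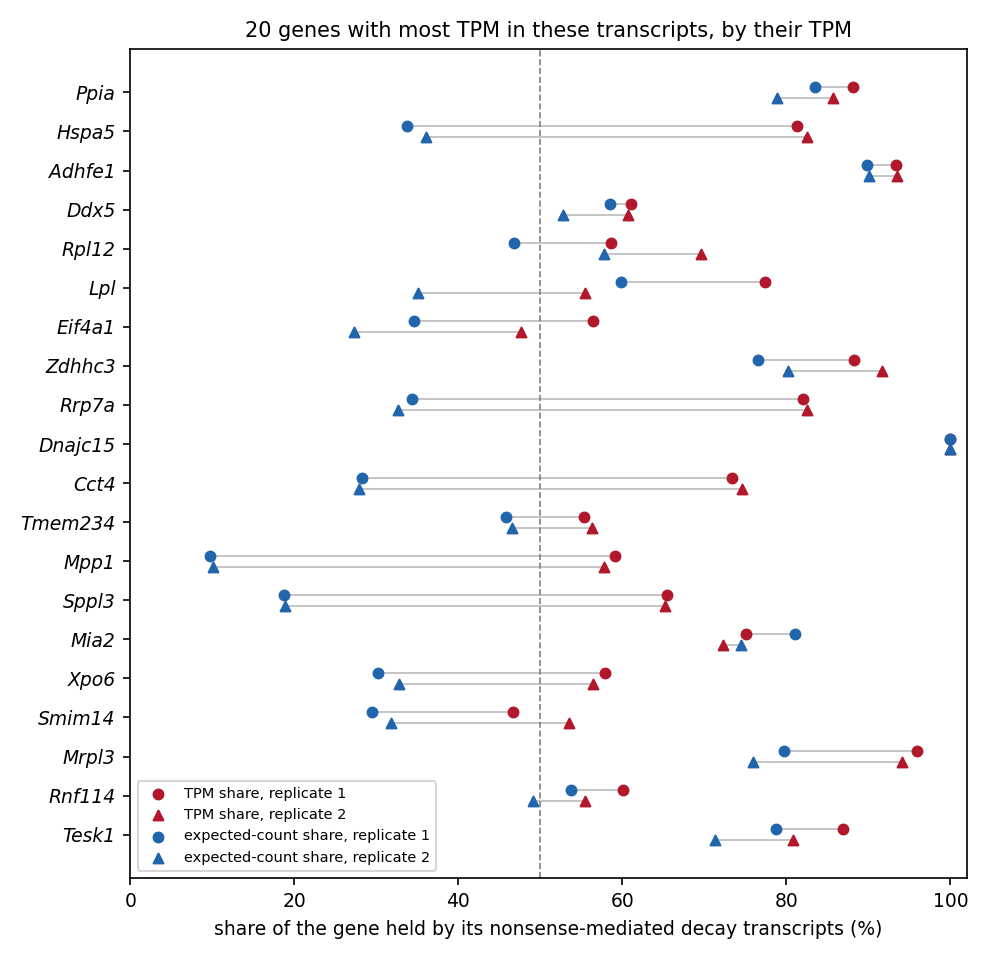
Share of each gene held by its NMD transcripts (%, x axis) for the 20 genes with the highest such TPM among the 147 genes above 50%, ordered by that TPM from top to bottom. Red marks are shares of TPM and blue marks shares of expected counts, with circles for replicate 1 and triangles for replicate 2; Hspa5, Mpp1 and Cct4 have red marks right of the dashed 50% line and blue marks left of it.

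The position of the stop codon went with the label in nearly all of the 821 transcripts with a usable structure. The bases from the end of the stop codon to the last exon junction had a median of 359 (quartiles 173 and 810), and 817 transcripts had 50 bases or more. The annotators used that position to give the type, so this checks the label and is no finding. The 4 below 50 bases were Adap2-202 (-5), Mrrf-202 (29), Ubl5-205 (38) and Cyb5a-201 (45), of which the first 3 were named after their values were seen. There was 1 junction after the stop in 179 transcripts, 2 in 183 and 3 or more in 458, up to 37. The stop codon was TGA in 492, TAA in 168 and TAG in 161.

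**Figure D4:**
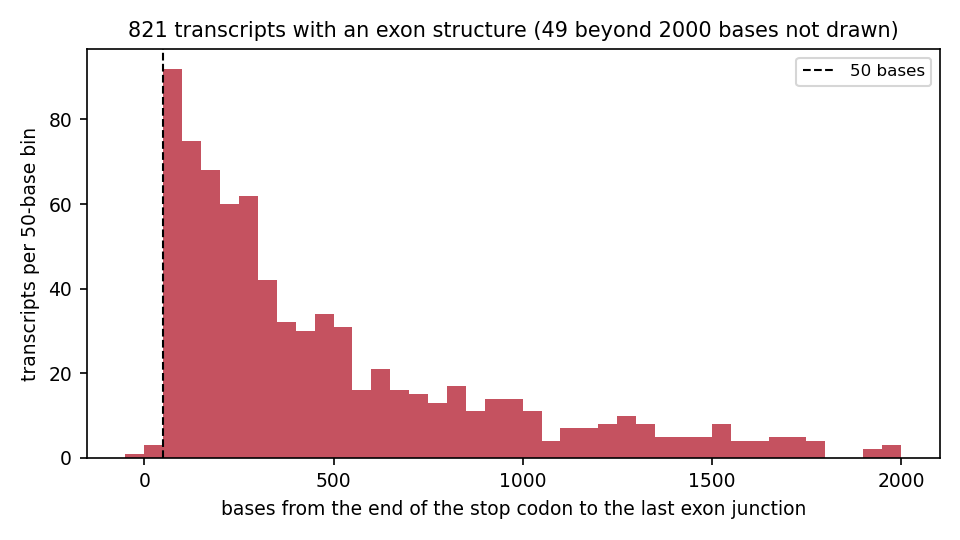
Number of NMD transcripts (y axis, bins of 50 bases) by the distance in bases from the end of the stop codon to the last exon junction (x axis), for the 821 transcripts with a usable structure. The dashed line marks 50 bases, 817 transcripts lie at or beyond it, and 49 beyond 2000 bases are not drawn.

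Each of 811 transcripts was set beside a coding transcript of its gene in the tables, the principal one in the annotation where there was one. The stop codon differed in 764 and was the same in 47. A splice site used differently was the only kind of difference in 280 of the 811 transcripts, skipped exons in 205 and extra exons in 140. An intron spliced out of an exon of the coding transcript, translated or not, was the only kind in 21, and a retained intron in 17. More than 1 kind was found in 101, and in 47 no such difference lay inside the shared span. Median mean IsoPct was 24.6% for transcripts with skipped exons, 14.2% with extra exons and 12.1% with a different splice site. These values were not compared by a test.

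Skipped exons mostly broke the reading frame, and extra exons mostly brought in the stop. The type is given from the position of the stop codon, so these shares follow largely from the label and are no finding. No such share was computed for transcripts of other types. Of 167 transcripts that differ by 1 skipped exon, 161 (96.4%) lack a number of bases that is not a multiple of 3. Adhfe1-201 lacks an exon of 41 bases, and its stop codon ends 20 bases after an exon junction. Of 127 transcripts with 1 extra exon, 101 (79.5%) have their stop codon inside it. The length of that exon was a multiple of 3 in 45, and in 41 of those 45 the stop lies inside it.

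Lpl-203 is 1 of the 47 that keep the stop codon of the coding transcript, with 216 bases of its own and with an exon junction 61 bases after the stop codon of the coding Lpl-201. Chpt1-207 also keeps the stop of the coding Chpt1-201 and has an intron spliced out 72 bases after it. It had IsoPct values of 19% and 33.2%. Hnrnpdl-201 keeps the coding stop and carries an extra exon after it.

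Among splicing regulators, the SR proteins, which bind exons and promote their use, had NMD transcripts in 5 of 12 genes detected at 1 TPM or more in both libraries. These were Srsf1, Srsf3, Srsf4, Srsf6 and Srsf11, of the 8 detected SR genes with an NMD transcript in the annotation. That is 62.5% of the annotated ones, against 785 of 2407 (32.6%) over all detected genes with an annotated NMD transcript. For Srsf2, Srsf5 and Tra2b no NMD transcript passed, although the genes had 142 to 260 TPM, 161 to 179 TPM and 12.2 to 15.4 TPM. The list was chosen with results of these data known, and its shares are a description.

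Most SR transcripts held a small part of their gene. Srsf11-206 had 19.1 TPM in replicate 1 and 8.49 TPM in replicate 2, with IsoPct values of 16.9% and 8.79%. Srsf6-201, whose exon is shown above, had 6.64 and 7.66 TPM (14.7% and 17.9%). Srsf3-201, whose length differs from M21, had 8.34 and 15 TPM, and its IsoPct differed most, at 21.4% and 53.6%. Srsf11-212 (1.89 and 3.79 TPM), Srsf11-210 (1.96 and 1.51), Srsf1-204 (1.13 and 1.61) and Srsf4-204 (1.41 and 1.10) were all at or below 6% of their genes. The estimates of Srsf11-212 and Srsf11-210 rest on 18.9 to 55.7 expected counts per library.

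Of 40 other splicing regulators, all detected, 16 (40%) had 22 NMD transcripts past the minimum, beside 5.96% over all detected genes. That is 64% of the 25 with an annotated NMD transcript, beside 32.6% over all genes. The 16 include Hnrnpu only by the name of its readthrough transcripts, Hnrnpu-206 and Hnrnpu-208. This list too was chosen with results of these data known, and its shares are a description. Tardbp-228, from the gene of TDP-43, which binds its own RNA, had 8.84 TPM in replicate 1 and 11.8 TPM in replicate 2 with IsoPct values of 17.1% and 19.1%. Tardbp-226 was lower (1.54 and 1.6 TPM). Ptbp1-207 and Ptbp3-213, from genes of polypyrimidine tract binding proteins that repress exons, had 21.7 and 12.2 TPM and 10.7 and 6.94 TPM. Ptbp1-207 lacks a 34-base exon of Ptbp1-216, and Ptbp1-201 had 1.78 and 2.55 TPM.

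The CLK kinases phosphorylate SR proteins, and 3 of the 4 in the list had NMD transcripts. Clk2-204 had 8.93 and 9.37 TPM with IsoPct values of 28.8% and 37.4%, and it lacks an 85-base exon. Clk1-211 had 5.23 and 5.16 TPM (19.4% and 17%), Clk1-210 had 1.79 and 3.27 TPM and Clk4-204 had 1.55 and 1.06 TPM. Snrpa1-201, from the gene of a U2 snRNP protein, had 3.28 and 4.32 TPM and was the only one of the 22 outside the Hnrnpu readthrough gene to hold most of its gene in both libraries, at 55.8% and 60%.

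The rest of the list lay between those levels. Hnrnpl-213 (9.21 and 8.87 TPM) and Sf1-201 (11.1 and 7.79 TPM), from genes of an hnRNP and of the branch point protein SF1, were among the higher ones. Rbm5-211 had 11.3 and 6.46 TPM and Rbm5-210 had 2.28 and 1.01 TPM. Hnrnpdl-205 had 7.70 and 6.22 TPM and Hnrnpdl-201 4.80 and 3.16 TPM. Hnrnph3-204, Hnrnpd-204, Rbm39-222 and Rbm3-208 had 1.94 to 4.13 TPM in the libraries. The readthrough transcript Hnrnpu-206 had 15.9 and 15 TPM and Hnrnpu-208 2.70 and 6.71 TPM.

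**Figure D5:**
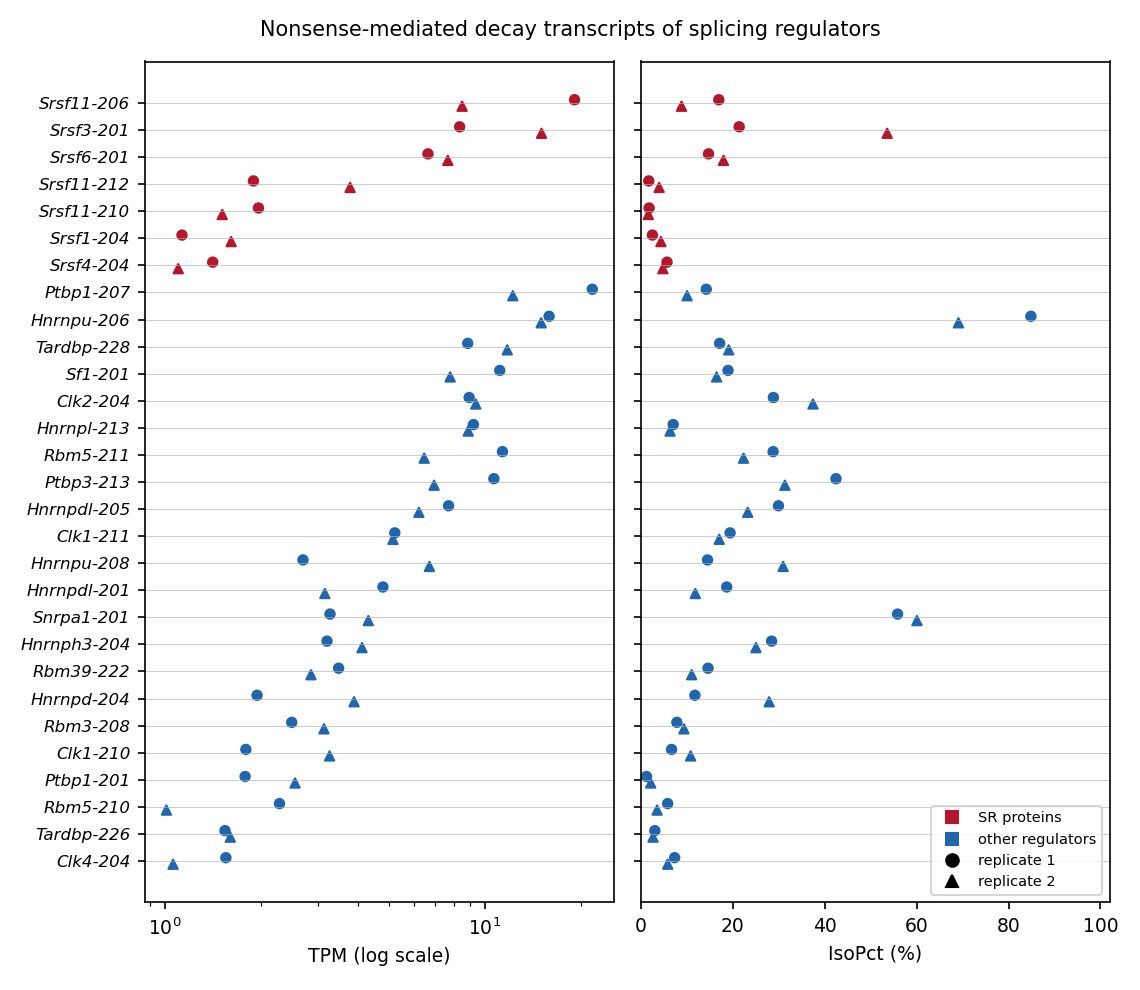
TPM (left, log axis) and IsoPct (right, %) of the NMD transcripts of SR proteins (red) and other splicing regulators (blue), with circles for replicate 1 and triangles for replicate 2, ordered by mean TPM within each set. Apart from Hnrnpu-206 of the readthrough gene, Snrpa1-201 is the only one above 50% of its gene in both libraries.

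The genes of the decay pathway itself were all detected, 12 of 12. Of these, 3 have an annotated NMD transcript, and 1 gene had one that passed. That is 33.3% of the annotated ones, beside 32.6% over all genes, and 8.33% of the detected ones, beside 5.96%. Smg6-202, from the gene of the nuclease that cuts NMD targets near the stop codon, had 17.5 TPM in replicate 1 and 14.8 TPM in replicate 2 and held 56.2% and 63.3% of Smg6. It skips a 62-base exon of the coding Smg6-201, which had 6.47 and 5.48 TPM. At the level of the gene, Upf1, the central helicase, had 19.3 and 17.5 TPM, and its partner Upf2 had 2.14 and 2.85 TPM. Of the 9 genes of the exon junction complex and release factors, 1 (Magohb) has an annotated NMD transcript, and it did not pass the minimum. None of the 7 detected genes of stress and amino acid response, a class often raised when decay is impaired, has an annotated NMD transcript in the tables, so this list gives no reading.

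A list of genes whose symbols begin like those of ribosomal proteins, with 6 genes of translation added (Eef1a1, Eef1b2, Eef1d, Eef2, Eif4a2 and Tpt1), had NMD transcripts in 9 of 138 detected genes (6.52%, beside 5.96% over all detected genes). That is 64.3% of its 14 genes with an annotated one, beside 32.6% over all genes. Other translation factors, such as Eif4a1, are not in the list, and Rps6kb2, a kinase gene with Rps6kb2-204 and Rps6kb2-205 at 1.66 to 2.93 TPM, is in it only by name. Rpl12-201 held 58.6% and 69.5% of its gene and was the only one in the list to hold most of it. Eef1b2-205, from the gene of an elongation factor subunit, had 50.8 and 47.5 TPM and 30.4% and 33.4% of its gene. Rps19-205 had 14.7 and 24.8 TPM (4.07% and 6.05%), and Rpl27a-205 had 7.08 and 19.4 TPM (3.31% and 7.94%). Rpl3-205, Rpl10a-203, Rps9-210 and Eif4a2-217 had 1.31 to 4.59 TPM and 0.15% to 4.48% of their genes.

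Among solute carriers, vacuolar proton pump subunits, aquaporins, cytochromes P450 and ABC transporters, which carry out much of the tubule's work, 24 of 387 detected genes had NMD transcripts (28 in all). That is 36.9% of the 65 detected genes with an annotated one, beside 32.6% over all genes. Slc5a2, which takes up filtered glucose, had Slc5a2-204 at 16.1 and 11.5 TPM and Slc5a2-207 at 8.07 and 9.14 TPM, against 727 and 595 TPM of the coding Slc5a2-202. Slc22a18-203 and Slc22a18-204 together stayed below 6% of a carrier gene of the organic cation family. Slc47a1-202, from the gene of the organic cation exporter MATE1, had 17.9 and 18.8 TPM (5.24% and 7.21%), and Slc7a9-204, from the cystine carrier gene, had 3.93 and 3.43 TPM (1.44% and 1.57%).

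Larger shares were found in other genes of that list. Slc2a2-202, from the gene of the basolateral glucose carrier, had 13.8 and 20.9 TPM and IsoPct values of 16.1% and 26.3%. Cyp27b1-203, from the gene of the enzyme that activates vitamin D in the kidney, had 3.02 and 3.57 TPM and 29.1% and 37.6% of its gene. It differs from the coding Cyp27b1-201 by 63 extra bases at a splice site. Atp6v1c2-204, from a proton pump subunit gene, had 8.02 and 10.8 TPM (34.1% and 42.1%).

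In 3 of the 24 genes NMD transcripts held most of the TPM as the mean of the libraries, beside 147 of 785 (18.7%) over all genes. Slc35f6-204 had 65.9% and 66.8% of its gene, Slc35b1-202 had 61.4% and 50%, and Slc25a12-207, from the gene of the mitochondrial aspartate and glutamate carrier, had 47.3% and 54.1%. The others of the list were Slc6a8-202 (28.6 and 28.1 TPM), Slc6a20b-204 (23.6 and 12 TPM), Slco2a1-203 (11.7 and 6.43 TPM) and Slc38a3-213, described below. Slc35a2-206, Slc25a22-204, Slc6a17-206, Slc35f5-202, Slc15a4-202, Slc15a4-205, Slc2a4-206, Abcg2-206, Slc25a38-205, Slc25a38-206, Slc16a11-203 and Cyp4b1-202 lay between 1.17 and 9.76 TPM in the libraries.

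The libraries ranked the NMD transcripts similarly, with a correlation of log10 TPM across the 896 of 0.910 as a description. A TPM ratio of 2 or more between the libraries was found for 131 of them (14.6%), against a background of 8.2% of 23633 transcripts of all types at 1 TPM or more in both. It was found for 5.52% of protein-coding, 16.7% of retained-intron and 14.8% of processed transcripts. Within 100 to 1000 expected counts the shares were 14.6% of NMD, 7.53% of protein-coding, 14.45% of retained-intron and 13.57% of processed transcripts. Over all types in that range the share was 9.3%. No test of these shares was made.

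Replicate 1 was the higher in 99 of the 131 (11.0% of the 896, background 6.13%) and replicate 2 in 32 (3.57%, background 2.07%). The TPM scale also differed between the libraries: the median log2 ratio of replicate 2 to replicate 1 was -0.20 over all 23633 transcripts and -0.27 over the NMD transcripts. With counts scaled by TMM, a factor from the middle of the ratios, 95 were 2-fold apart, 52 higher in replicate 1 and 43 in replicate 2. The background by that scaling was 6.56%.

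The most uneven at a mean of 5 TPM or more were from genes of varied function. Slc38a3-213, from the gene of a glutamine carrier, had 15.6 TPM in replicate 1 and 1.49 TPM in replicate 2, on 416 and 56.3 expected counts. Tesc-202, from a calcium-binding protein gene, had 11.3 and 1.70 TPM, and it is one of those with no junction or base of its own. Zfp106-209, from a zinc finger protein gene, had 12.6 and 2.06 TPM, and Gmds-204, from the gene of an enzyme of fucose synthesis, had 11 and 2.39 TPM on 104 and 33.3 counts. Pebp1-204 was the only one of the 5 that was higher in replicate 2.

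The tissue pieces differed too. All kidney markers examined were present, such as Slc34a1 of the proximal tubule at 5821 TPM in replicate 1 and 4317 TPM in replicate 2. The skeletal muscle markers Ckm, Acta1 and Myh4 summed to 1.95 TPM in replicate 1 and 623 TPM in replicate 2, all 3 higher in replicate 2. The adrenal markers Star, Cyp11b1 and Cyp11a1 summed to 13.4 and 0.4 TPM, and the lymphocyte markers Cd79a and Cd3e to 1.88 and 20.1 TPM. None of these 8 was at 0 in either library. Their part in the uneven NMD transcripts was not tested, and in bulk tissue fewer cells of a type and less RNA per cell cannot be told apart.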

How the data were processed

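RNA with a poly(A) tail and over 200 nt long was made into 2 stranded kidney libraries and read in pairs of 76 nt, per the labels. Text records that accompany the tables name the build mm10 and the annotation M4. No aligner or quantification program is given in the sources used here. The deposited expected count of a transcript is an estimate of its fragments and can be fractional. Per the file headers, each row also has TPM, FPKM and the isoform share in percent. The deposited posterior mean counts, their SD and the interval bounds are signal values of the quantification. How the authors shared reads among overlapping transcripts bears on every level here.

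Transcript types, structures and sequences came from GENCODE M21 on GRCm38, joined by identifier without version. Of 103639 mouse transcripts, 101510 (97.9%) matched, and 261 of the 896 NMD transcripts had the same version. The coding transcript set beside each was a protein-coding one of the same gene that shares exon bases, the APPRIS principal one first and otherwise the one of highest TPM. Of 811 such transcripts, 716 had the M21 length in the tables. Gene shares were sums of transcript TPM or counts. Python 3.11.15 with pandas 2.3.3 was used, and counts were scaled with edgeR 4.0.16 (TMM) and DESeq2 1.42.0 under R 4.3.3 after rounding to whole numbers. The fold rule was tested on simulated data, as random counts scaled by TMM with rises in replicate 2 only. Those counts hold no error from sharing fragments among transcripts, so they do not show how the TPM ratio behaves under that error. With 1 group no differential test was made, and the labels name no molecular identifiers.

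Named were the 15 highest NMD transcripts, up to 20 genes with most TPM in them, the 5 most uneven at 5 TPM or more, 3 on each side of the minimum, and all in 7 gene lists. The transcripts and lists were chosen with earlier results of these data known. Junction and contig tables on mm9 were not used here. The level of 1 gene is not reported here.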

Additional observations from a re-analysis of the deposited data

How the results depend on the processing

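Of 66 combinations of a result and an alternative, 53 stayed within 1.5 times a count or within 1 SD between the libraries for a median or share, and 13 did not. A minimum of 0.5 TPM moved the median of the mean TPM to 2.47 and a minimum of 2 TPM moved it to 6.68, both by construction. Matching identifier and version left 261 transcripts of 254 genes, 38 genes with most TPM in NMD transcripts and 0.269% of TPM, against 896, 785, 147 and 0.924% (mean of both libraries), since fewer transcripts enter. Without transcripts tagged incomplete the share of TPM was 0.734%. Taking the minimum in 1 library alone, that is without replicate 1 or replicate 2, gave medians of 3.12 to 3.33 TPM, shares of TPM of 0.874% to 1.04%, 996 to 1111 transcripts, 854 to 947 genes and 147 to 168 genes with most TPM in them. The difference of log2(TPM + 1) in place of the TPM ratio left 66 transcripts past 2-fold, since the pseudocount shrinks low values. Of those past 2-fold, 75.6% were higher in replicate 1 by TPM, 54.7% by TMM and 53.1% by DESeq2 size factors. Among 6 alternatives chosen after seeing the data, the interval bound at 1 TPM moved the median to 5.58 TPM, and shares of expected counts left 103 genes above 50%, or 83 among genes with a coding transcript in the tables. Keeping only transcripts whose length equals that in M21 left 821 transcripts and 116 genes with most TPM in them. No paired analysis was possible because the series has 1 group, so no groups share replicate numbers. Depth limits the transcripts of few counts: 812 of the 896 had 50 expected counts or more in both libraries.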
